A study of Drosophila melanogaster with 23 samples.

Results

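Chromatin immunoprecipitation followed by sequencing (ChIP-seq) of Mzfp1, the zinc finger protein encoded by CG1603, gave 10 peak lists in Drosophila melanogaster, and the regions described here are those that lie at divergent promoters in the euchromatin of the autosomes. The 4 adult anti-Mzfp1 lists and the 2 embryo lists were merged into 2521 regions. A merged region was kept when it lay on 2L, 2R, 3L or 3R outside the heterochromatin coordinates of the study, and within 200 bp of a transcription start of a protein-coding gene whose 5′ end faces that of a protein-coding gene on the other strand, with both starts at most 1000 bp apart. This gave 735 members, which are 29.2% of all merged regions and 37.7% of the 1950 autosomal euchromatic ones. Of the other autosomal euchromatic regions, 860 (44.1%) lay near a start that was not part of such a pair and 355 (18.2%) lay away from starts. The embryos and one group of adults were of the strain y1w1118, which carries no tag. The other adults expressed an HA-tagged Mzfp1 transgene from the ubiquitous Ubi-p63E promoter and kept 1 endogenous copy of CG1603, so anti-Mzfp1 could precipitate both proteins and anti-HA the tagged protein alone. In the wt line the tagged protein was of full length. The tagged protein lacked the second of its MADF domains in the ΔM2 line and zinc fingers of the C-terminal cluster in the ΔZF line. In the Δ42 line it lacked a stretch that binds the cofactor CP190. The study maps a further such stretch, and the protein with this deletion still bound CP190 weakly in co-immunoprecipitation. The stretch deleted in Δ42 lies within the part of Mzfp1 against which the anti-Mzfp1 antibodies were raised. The plots add the tag to the names, as in wt-HA. Adults were 2 to 3 days old and whole animals were used, so fewer cells with a bound site and less binding per cell cannot be told apart. Anti-Mzfp1 raised in rat was used in adults of all genotypes except ΔZF, anti-HA in the 4 transgenic lines, and antibodies raised in rat and in rabbit in embryos.

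Each adult list was made by the authors from 2 libraries and each embryo list from 1 library, and lists may share control libraries. With 1 list per group no value has a spread between replicates, so no test was run between groups, and the intervals given are 95% intervals that cover counting error only (Wilson for a share, Newcombe for a difference between shares). The depth of the libraries is unknown, and the lists held 788 (rat) and 117 (rabbit) regions in embryos, 1620 to 2008 in adults with anti-Mzfp1, 574 in wt with anti-HA, and 6216 to 6245 in the 3 deletion variants with anti-HA. At a divergent promoter, neighbouring genes on opposite strands are transcribed away from each other from a shared stretch of DNA. Such pairs are common in the compact Drosophila genome and often hold genes used in every cell. Their promoters tend to lack a TATA box and to carry instead the motifs of proteins such as Dref, which recognises the DNA replication-related element TATCGATA, BEAF-32, an insulator protein that recognises CGATA, and M1BP, which recognises GGTCACACT. Mzfp1 belongs to the C2H2 zinc finger proteins that have architectural roles in the fly genome.

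The stretch between both starts is printed below for 5 members, to show what kind of DNA carries a strong region and how little these stretches share. They were chosen by rule as those of highest y1w1118 fold enrichment among the members named by their fold, spacing or gene family (not those named for a match) outside the second chromosome's right arm whose stretch was at most 300 bp. Fold enrichment is the authors' ratio of ChIP over control at the summit, the position of the highest signal in a region. Each is the plus strand of the Release 6 genome (dm6) from the base after the start of the minus-strand gene, which is named first, to the base before the start of the plus-strand gene. Capitals mark CGATA on either strand and a 15-bp match to a matrix made from other Mzfp1 regions, which is described next.
CG6195/CG31220 (chr3R:19648411-19648486): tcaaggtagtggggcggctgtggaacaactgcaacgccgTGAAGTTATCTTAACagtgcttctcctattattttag
Npc1a/Prosalpha6 (chr2L:10221217-10221350): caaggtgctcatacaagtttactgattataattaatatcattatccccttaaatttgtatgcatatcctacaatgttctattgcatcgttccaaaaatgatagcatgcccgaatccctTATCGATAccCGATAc
CtsL4/ClpP (chr2L:10356598-10356794): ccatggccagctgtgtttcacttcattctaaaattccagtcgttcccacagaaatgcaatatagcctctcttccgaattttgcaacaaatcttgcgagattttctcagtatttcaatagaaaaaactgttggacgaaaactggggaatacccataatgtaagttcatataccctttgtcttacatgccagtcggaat
CG12974/pzg (chr3L:21285963-21286098): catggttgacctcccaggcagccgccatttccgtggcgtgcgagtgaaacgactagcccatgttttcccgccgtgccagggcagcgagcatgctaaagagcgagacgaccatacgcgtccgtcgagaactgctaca
GluProRS/AP-1sigma (chr3R:23958392-23958650): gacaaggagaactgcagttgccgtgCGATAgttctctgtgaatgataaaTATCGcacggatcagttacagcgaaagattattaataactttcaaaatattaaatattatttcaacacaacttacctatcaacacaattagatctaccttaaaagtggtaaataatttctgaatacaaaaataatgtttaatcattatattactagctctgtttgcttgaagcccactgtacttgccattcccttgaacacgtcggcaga

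These 5 stretches were unlike each other. The 134-bp stretch of Npc1a (cholesterol transport) and Prosalpha6 (a subunit of the proteasome core) held TATCGATA and a further CGATA, both at its Prosalpha6 end. Counted on both strands these are 3 CGATA, since TATCGATA reads the same on either strand. The summit lay 21 bp upstream of the Prosalpha6 start. The 76-bp stretch of CG6195 and CG31220 held the matrix match and no CGATA. That of GluProRS, a tRNA synthetase, and AP-1sigma, a subunit of a clathrin adaptor, held 2 CGATA in the part nearest GluProRS, with the summit 44 bp from it. Neither CGATA nor a match was found in the 197-bp stretch of CtsL4 and ClpP, a protease of mitochondria, nor in the 136-bp stretch of CG12974 and pzg, a chromatin factor. The pzg member had its match inside the gene, where its summit lay 42 bp downstream of the start. GC content ran from 34% at GluProRS/AP-1sigma to 60.3% at CG12974/pzg.

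A 15-bp matrix was trained on the 100 y1w1118 adult regions of highest fold enrichment that were not members, starting from the word TATCTTGA. A second matrix from the 300 highest such regions, a number chosen after the data were seen, started from TATCGATA, the Dref element. The matches to the matrix of the 100 regions are printed below for the 8 members of highest y1w1118 fold enrichment that had one outside the second chromosome's right arm, with 5 flanking bases on either side. Capitals mark the match, and each line is written 5′ to 3′ on the strand of the match.
CG31626/Hr39 (chr2L:21237119-21237143, plus strand): cccacCGTCGCTGCCTTGACgtatt
SmD1/Ptp69D (chr3L:12734616-12734640, minus strand): atgagCGTTGCTATCTTAGCacacg
CG6195/CG31220 (chr3R:19648445-19648469, plus strand): cgccgTGAAGTTATCTTAACagtgc
Dph2/CG14860 (chr3R:14893938-14893962, minus strand): tgcatCGGTGTTATCTTGACtttgt
shams/CG11920 (chr3R:25074613-25074637, minus strand): ggcctTGCCGCTATCTTGACtaaca
Cdk1/mRpS7 (chr2L:10386266-10386290, minus strand): ataaaTGTAGCTAGCTTAGCatcgt
Sfp24F/CG15432 (chr2L:4442391-4442415, minus strand): ctgcaCGTTGTTATCTTTACataat
CG14036/His3.3A (chr2L:5055084-5055108, minus strand): tataaGGTCAATATCTTGACagctg

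The centres of these 8 matches lay 1 to 47 bp from the summit, and those of all but Dph2/CG14860 lay between both starts. Within 100 bp of the summit a match to the matrix of the 100 regions was found in 66 of the 735 members (8.98%, interval 7.12 to 11.3%). The same 200-bp window 1000 bp to the left or right of the summit held one in 4.63% of members on either side. In the 1291 annotated pairs without a region the share was between 2.94% and 5.34%, depending on whether the window was placed in the middle of the stretch or 30 bp upstream of either start. The share was 8.95% in the other regions near a start and 9.86% in regions away from starts, sets that include regions the matrix was trained on. Matches were most frequent in the strongest members. Of the 25 members of highest y1w1118 fold enrichment 12 (48%, interval 30 to 66.5%) held a match, against 15.8% in the highest quartile of the 586 members in the y1w1118 list, and 4.08 to 8.16% in the 3 lower quartiles.

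The matrix of the 300 regions started from the Dref element but was most fixed at its CGATA, with 1.02 to 2.15 bits of information per base. The TAT before it had 0.349 to 0.608 bits per base, so a match need not hold TATCGATA. Matches to the matrix of the 300 regions were spread more evenly. They were found in 328 members (44.6%, interval 41.1 to 48.2%), at a median of 18 bp from the summit, against 3.13 and 4.22% in the windows to the left and right and 6.51 to 12.3% in pairs without a region. The other regions near a start held such a match in 35.8% of cases and the regions away from starts in 7.89%. By y1w1118 fold enrichment the share was 41.8%, 54.4%, 43.8% and 49.7% from the highest to the lowest quartile, and 28% in the 25 highest members. Only 22 members matched both matrices and 363 matched neither.

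**Figure D1:**
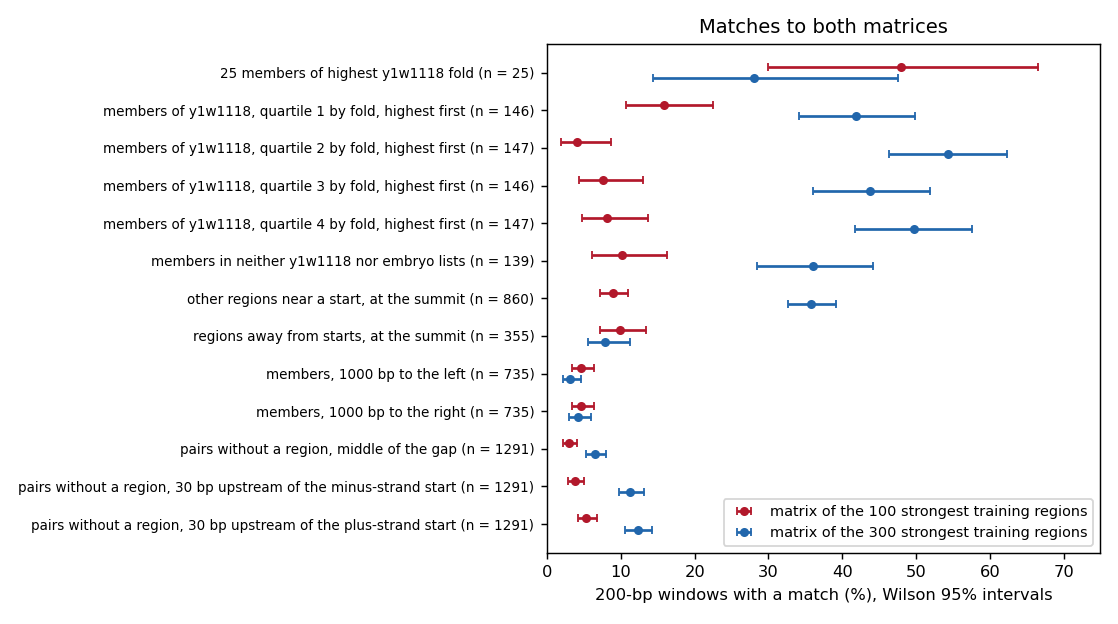
Share of 200-bp windows (%) with a match to each 15-bp matrix, with Wilson 95% intervals, in members by y1w1118 fold enrichment, in other regions, in windows 1000 bp away and in pairs without a region. The matrix of the 100 strongest regions (red) matched 48% of the 25 strongest members and no more than 15.8% of any quartile, while the matrix of the 300 strongest regions (blue) matched 41.8 to 54.4% of each quartile.

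Plain letter motifs, searched on both strands in the same windows, divided the windows in a like way. TATCGATA was present in 178 members (24.2%, interval 21.3 to 27.4%), in 0.136% of the windows on either side, in 5.42 to 8.52% of pairs without a region and in 17.4% of other regions near a start. CGATA, which is contained in TATCGATA, was present in 73.3% of members (70 to 76.4%), against 25 and 20.4% in the windows to the left and right and 34.9 to 41.1% in pairs without a region. Windows with CGATA but no TATCGATA made up 49.1% of all member windows (361 of 735). In pairs without a region they made up 29.4 to 34.4% of all windows. GGTCACACT was found in 7.35% of members (5.67 to 9.46%), which is within the range of pairs without a region (4.57 to 10.4%), although it was rare 1000 bp away (0.272% on either side). TATAAA, a core of the TATA box, was found in 21.9% of members (19.1 to 25%), against 15.1 and 15.8% in the windows to the left and right, and was more frequent in pairs without a region (35.8 to 40.4%). The same difference for CGATA held in the stretches themselves. Among stretches of 100 to 300 bp CGATA was present in 71.7% of the 244 with a region (65.8 to 77%) and in 44.7% of the 456 without (40.2 to 49.3%), at a median GC content of 34.8 and 35%. Windows at summits and windows placed by rule differ in how they were chosen, and these shares describe letters in a window and not sites.

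The annotation held 2061 head-to-head pairs in autosomal euchromatin, and 770 of them (37.4%, interval 35.3 to 39.5%) carried a region. Most members (682) touched 1 pair and 53 touched more than 1. By arm 163 of 466 pairs on 2L (35%), 177 of 484 on 2R (36.6%), 167 of 477 on 3L (35%) and 263 of 634 on 3R (41.5%) carried a region, and the 4 intervals overlapped. By the distance between both starts this share was 35.6% at 1 to 100 bp, 29.4% at 101 to 200 bp, 38.6% at 201 to 300 bp, 43.1% at 301 to 400 bp, 38.2% at 401 to 500 bp, 39% at 501 to 700 bp and 36.2% at 701 to 1000 bp. The lowest and the highest of these shares had intervals that did not overlap (24.4 to 35% and 37.9 to 48.5%), while the others overlapped with one or the other. The starts of members lay a median of 314 bp apart (quartiles 201 and 508 bp), from 14 bp at CG6712 and Mt2, a tRNA methyltransferase, to 984 bp at Smg5, a factor of nonsense-mediated mRNA decay, and Ance, a peptidase.

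Genes of head-to-head pairs had a region at their 5′ end more often than other genes. Of 3917 such genes 1295 (33.1%) had a region within 200 bp of their outermost 5′ end, against 776 of 7619 other protein-coding genes (10.2%), a difference of 22.9 percentage points (interval 21.3 to 24.5). Part of this difference follows from the geometry, since 1 region can serve both genes of a pair. When each summit was assigned only to the gene with the nearest start within 200 bp, 18.4% of paired genes and 8.89% of other genes had one, a difference of 9.47 points (8.12 to 10.9). This second count used all annotated starts of a gene and summits in place of regions, so both differences are not on the same footing.

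Within the stretch the summit lay close to one start rather than in the middle. It was between both starts in 569 members (77.4%, interval 74.3 to 80.3%) and at a median of 26 bp upstream of the nearer start (quartiles 2 and 48.5 bp). The other start was a median of 320 bp away. In 527 members (71.7%) the summit lay 0 to 100 bp upstream of the nearer start, and in 498 (67.8%) within 50 bp of it on either side. In members with 701 to 1000 bp between the starts it lay a median of 24.5 bp upstream of the nearer start and 810 bp from the other. In those members the summit was between the starts in 67.1% of cases (56.3 to 76.3%). Members were chosen within 200 bp of a start, which leaves out regions in the middle of a wide stretch, so closeness to a start is in part set by the choice of members. The nearer start of no member was placed by the annotation at the first coding base, and in 8 members (1.09%) at least 1 of both starts was.

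**Figure D2:**
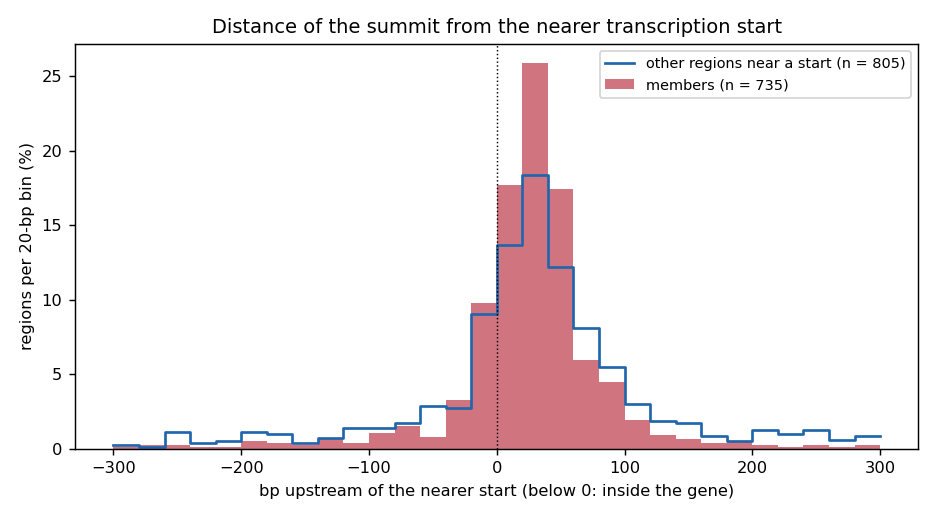
Distance of the summit from the nearer transcription start (bp, upstream to the right of 0, in bins of 20 bp) as a share of regions (%), for the 735 members (red) and the 805 other regions near a start with a protein-coding start within 500 bp of the summit (blue line). Both had their highest bin 20 to 40 bp upstream, with medians of 26 and 29 bp, and members were the more narrowly placed.

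Summits of other regions near a start lay in the same place but were more spread. Their median was 29 bp upstream (quartiles −4 and 67 bp, n = 805), and 52.9% lay within 50 bp of the start, against 67.8% of members. A member has a start on either side to lie close to, and the part of this in the difference was not tested. The regions of members were wide enough to span both starts in 433 cases (58.9%), from 95.1% when the starts were up to 100 bp apart to 13.4% when they were 701 to 1000 bp apart.

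The strongest members were found in all 10 lists, and the folds are given list by list because the scale of one list is not that of another. CG31626/Hr39 (chr2L:21235402-21238241), where Hr39 encodes a nuclear hormone receptor, had the highest fold enrichment of all members in y1w1118 adults. Its fold enrichment was 12.8 and 8.49 in embryos with the rat and rabbit antibodies, 230 in y1w1118 adults, 187 in wt, 156 in ΔM2 and 245 in Δ42 with anti-Mzfp1, and 146 in wt, 86.2 in ΔM2, 130 in Δ42 and 11.2 in ΔZF with anti-HA. The summit lay 102 bp upstream of Hr39 and 415 bp from CG31626. Pc/Rab26 (chr3L:21316981-21319490) pairs Polycomb, the chromodomain subunit of the PRC1 repressor complex, with a small GTPase of membrane traffic. In the same order of lists its fold enrichment was 16 and 9.44 in embryos, 183, 154, 111 and 192 in adults with anti-Mzfp1, and 112, 29.8, 143 and 6.51 with anti-HA, and its summit lay 66 bp upstream of Pc. SmD1/Ptp69D (chr3L:12733478-12735742) pairs a core protein of the spliceosomal snRNPs with a receptor tyrosine phosphatase of axon guidance. There the values were 13 and 16 in embryos, 167, 117, 93.6 and 143 with anti-Mzfp1, and 62.7, 72.6, 67.8 and 5.77 with anti-HA, and the summit lay 21 bp upstream of SmD1.

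In each of the 8 strongest members ΔM2 had the lowest value of the 4 adult anti-Mzfp1 lists. Values in ΔM2 were low across its list as well. Over all merged regions found in a list its median was 3.04, against 3.36 to 3.61 in the others. In the 461 members shared with y1w1118 the fold in ΔM2 was a median of 0.79 times that in y1w1118. The part of this scale in the low values was not tested. The other 5 of the 8 are given next. Between ppk29, an ion channel gene, and eEF5, a translation factor (chr2R:24055568-24059265), the fold enrichment was 14.8 and 10.4 in embryos, 140, 127, 92.8 and 147 with anti-Mzfp1, and 75.7, 71.9, 105 and 9.51 with anti-HA. Chi, a cofactor of LIM-homeodomain proteins, and MAN1, a protein of the inner nuclear membrane (chr2R:24032584-24035223), have starts only 31 bp apart. Their member had 9.94 and 16.8 in embryos, 109, 74.1, 66.8 and 104 with anti-Mzfp1, and 76.4, 74.1, 36.3 and 4.88 with anti-HA. At CG6195/CG31220 (chr3R:19646346-19649090) the values were 7.13 and 5.74 in embryos, 98.4, 88.2, 58.6 and 89.7 with anti-Mzfp1, and 80.8, 17.1, 108 and 7.6 with anti-HA, so this member and Pc/Rab26 were low in ΔM2 with anti-HA relative to the other 6. Npc1a/Prosalpha6 (chr2L:10220074-10222450), whose stretch is printed above, went the other way. It had 15.4 and 16.3 in embryos, 93.1, 76.3, 62.4 and 91.5 with anti-Mzfp1, and 48.3, 70.2, 21.7 and 3.69 with anti-HA. At tsr, the fly cofilin, and sei, a potassium channel (chr2R:24046201-24047905), the values were 10.3 and 4.2 in embryos, 89.8, 76.7, 61.1 and 99.2 with anti-Mzfp1, and 58.9, 51.8, 46.2 and 6.02 with anti-HA. Among these 8 members ΔZF was the lowest of the 4 anti-HA values in every case, between 3.69 and 11.2.

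**Figure D3:**
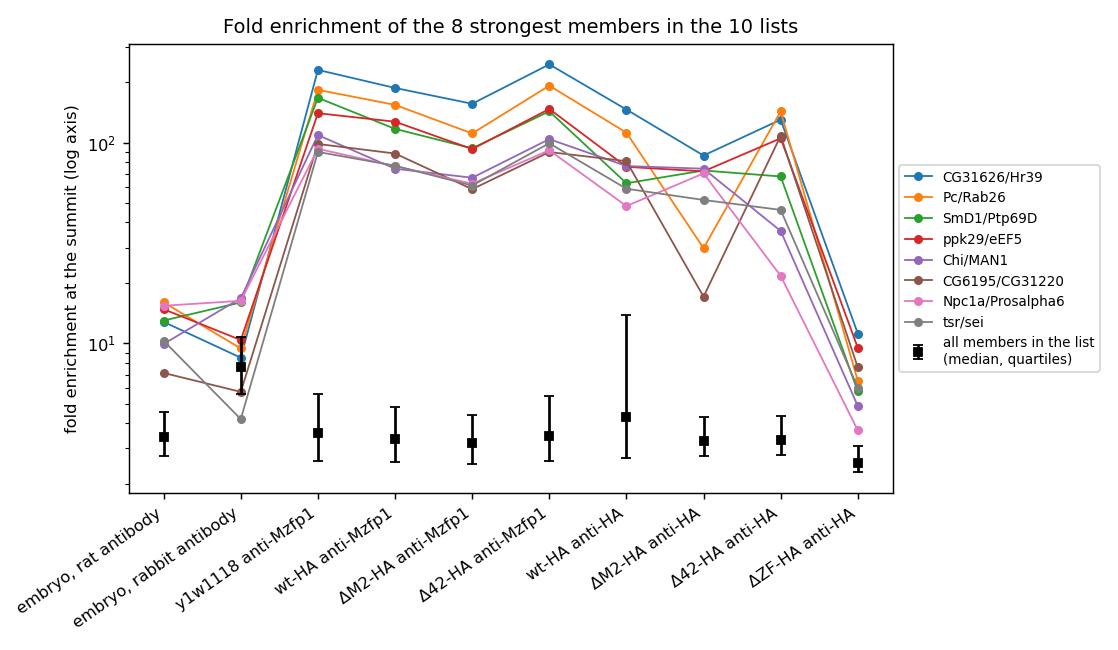
Fold enrichment at the summit (log axis) of the 8 members with the highest y1w1118 value in each of the 10 lists, with the median and quartiles of all members found in a list in black. The scale differs between lists, and lines only join the values of 1 member. In y1w1118 adults these 8 members reached 89.8 to 230 against a median of 3.6, and in ΔZF with anti-HA 3.69 to 11.2 against a median of 2.53.

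Most members were far weaker than these. Among members found in a list, the median fold enrichment was 3.6 in y1w1118 adults (quartiles 2.61 and 5.6, n = 586), 3.33 in wt, 3.19 in ΔM2 and 3.45 in Δ42 with anti-Mzfp1, and 3.43 in embryos with the rat antibody. Within its own list the median member ranked near the middle, at 49.9% of the y1w1118 list counted from the highest fold. Other regions near a start had the same median of 3.6 in y1w1118 and ranked at 50%. Members in the y1w1118 list kept their order more closely in the other adult anti-Mzfp1 lists than in the embryo lists. Spearman's rho of the folds, a description over lists that share the rat antibody (except the rabbit list) and possibly controls, was 0.801 with wt (n = 486), 0.915 with ΔM2 (n = 461), 0.948 with Δ42 (n = 552), 0.584 with the rat embryo list (n = 200) and 0.491 with the rabbit embryo list (n = 22). The summits of both lists lay a median of 8 to 10 bp apart for the adult lists and 28 bp apart for the rat embryo list.

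How often members appeared in each list was read against the share over all 2521 merged regions, which include the members. In embryos the rat antibody listed 210 members (28.6%, interval 25.4 to 31.9%, against 30% of all merged regions) and the rabbit antibody 22 (2.99%, 1.98 to 4.49%, against 4.52%). Members were therefore at the background in the rat list, where the difference was −1.46 points. Its interval (−5.09 to 2.35) takes both shares as independent, which they are not, and is approximate. In adults with anti-Mzfp1 members lay above the background over whole lists, but not at the top of these lists by fold (closing section). These and the embryo lists are the ones that were merged. The height of their shares is therefore in part set by that choice, for members, other regions and all merged regions alike. Merging only the y1w1118 adult and both embryo lists moved the y1w1118 share of members from 79.7 to 98.3%, and no background is available for that merge. The y1w1118 list held 586 members (79.7%, 76.7 to 82.5%, against 65.7%), the wt list 558 (75.9%, 72.7 to 78.9%, against 66.9%), the ΔM2 list 511 (69.5%, 66.1 to 72.7%, against 63.1%) and the Δ42 list 655 (89.1%, 86.7 to 91.2%, against 79.1%). With anti-HA the shares were close to or a little below the background. They were 14.4% in wt (106 members, 12.1 to 17.1%, against 18%), 46.3% in ΔM2 (340 members, 42.7 to 49.9%, against 43.8%), 36.1% in Δ42 (265 members, 32.7 to 39.6%, against 40.5%) and 9.66% in ΔZF (71 members, 7.73 to 12%, against 12.3%).

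**Figure D4:**
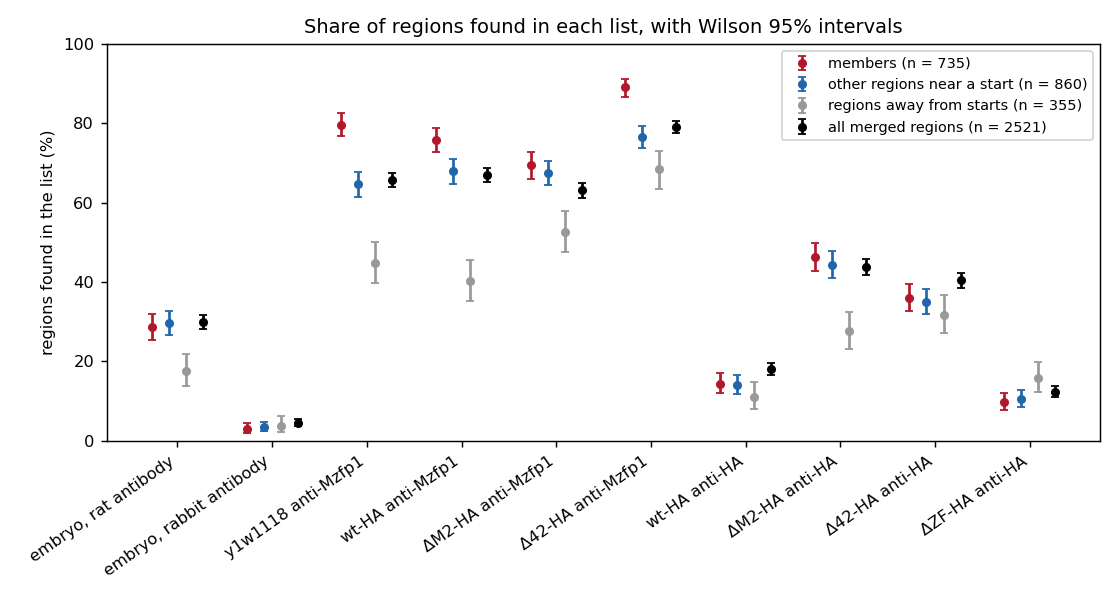
Share of regions (%) found in each of the 10 lists, with Wilson 95% intervals, for the 735 members (red), 860 other autosomal regions near a start (blue), 355 regions away from starts (grey) and all 2521 merged regions (black). Members exceeded the other regions near a start in the y1w1118 (79.7 against 64.7%), wt and Δ42 anti-Mzfp1 lists, and differed little from them with anti-HA.

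Set against the other autosomal regions near a start, members were found more often in 3 of the 4 adult anti-Mzfp1 lists. The difference was 15.1 points in y1w1118 (interval 10.7 to 19.3), 8.01 in wt (3.59 to 12.4) and 12.5 in Δ42 (8.83 to 16.1), but 1.97 in ΔM2 (−2.61 to 6.51), an interval that includes 0. In embryos with the rat antibody it was −1.08 (−5.52 to 3.4). With anti-HA the 4 intervals all included 0, with differences of 0.352 in wt (−3.07 to 3.83), 1.84 in ΔM2 (−3.05 to 6.73), 1.05 in Δ42 (−3.64 to 5.77) and −0.805 in ΔZF (−3.75 to 2.2). The regions of members were wider, with a median of 572 bp against 487 bp in the y1w1118 list, and a wide region is more easily touched by a region of another list. The part of width in these differences was not tested.

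Combinations of lists were counted in members only, so the counts below do not tell members from other regions. All 4 adult anti-Mzfp1 lists held 418 members (56.9%), and all 10 lists held 14 members. At the other end 116 members (15.8%) were in only 1 of the 6 merged lists, among them 55 in the Δ42 list alone, which was also the longest of the 6. Of the 210 members found in embryos 200 were in the y1w1118 adult list, and 2 were in no adult anti-Mzfp1 list. The embryo members missing from y1w1118 adults were weak, and the highest of these 10 were px/CG11362 with a rat embryo fold enrichment of 3.24 and CG15528/Jasper with 2.89. A further 139 members (18.9%) were in neither the y1w1118 adult nor the embryo lists. Among the highest of them were Ir60e/CG13585, with 10.9 in wt and 2.01 in Δ42 with anti-Mzfp1 and 5.98 in wt with anti-HA, and CG8441/clu, with 6.68 in wt and 4.6 in Δ42 with anti-Mzfp1 and 7.3 in wt with anti-HA. Clu is a protein that mitochondria need for their placement in the cell.

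Whether a y1w1118 member was found again depended on its fold enrichment. In the highest quartile (5.62 to 230) all 146 members were found in wt, ΔM2 and Δ42 with anti-Mzfp1, and 110 (75.3%) in embryos with the rat antibody. In the lowest quartile (1.79 to 2.61, n = 147) the shares were 50.3% in wt, 40.8% in ΔM2, 78.2% in Δ42 and 8.16% in embryos. Other regions near a start fell in the same way, from 77% to 9.35% in the embryo list and from 100% to 56.1% in wt.

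Members absent from a variant's anti-Mzfp1 list were mostly weak. Of the 486 members in both the y1w1118 and wt lists, 66 (13.6%, interval 10.8 to 16.9%) were absent from the ΔM2 list and 11 (2.26%, 1.27 to 4.01%) from the Δ42 list. In the wt list those absent from ΔM2 had a median fold enrichment of 2.43 and those absent from Δ42 2.19, against 3.54 for all 486. The highest wt value among those absent was 11.1 for ΔM2 and 9.81 for Δ42. The ΔM2 list was also the shortest of the 4 and the Δ42 list the longest. By y1w1118 value the highest members absent from ΔM2 were Ipk2/cold (5.54 in y1w1118 and 3.73 in wt), CG10646/vih (4.49 and 5.51) and TM9SF3/mthl2 (3.72 and 3.12). Ipk2 is an inositol phosphate kinase and vih a ubiquitin-conjugating enzyme of mitosis. With anti-HA the first 2 of these were listed in ΔM2 after all, at 15.1 and 4.81. The highest absent from Δ42 were CG3702/RpL40 (2.38 and 2.62), Afti/ATPsynE (2.27 and 2.6) and Ric/Asph (2.23 and 2.13). Since these flies keep endogenous Mzfp1, the anti-Mzfp1 lists do not separate the variant from it.

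The anti-HA lists were not among the 6 merged lists, so a site that only they hold cannot be a member. Lower shares with anti-HA and overlap with anti-Mzfp1 are therefore in part set by the choice of members. With anti-HA 403 members (54.8%) were in at least 1 of the 4 lists, 28 in all 4, and 332 in none, counts that were made in members only. Of the 106 members in the wt anti-HA list, 105 were also in the wt anti-Mzfp1 list, which is 1 of the merged lists. Of the same 106 the ΔM2 anti-HA list recovered 93 (87.7%, interval 80.1 to 92.7%), the Δ42 list 84 (79.2%, 70.6 to 85.9%) and the ΔZF list 32 (30.2%, 22.3 to 39.5%), although the 3 variant lists were of about the same length. The shares were similar in the 121 other regions near a start that the wt anti-HA list held. There they were 81.8% in ΔM2, 80.2% in Δ42 and 32.2% in ΔZF. Recovery in ΔZF was concentrated in the strongest members, with 19 of 26 in the highest quartile of wt fold enrichment (14.7 to 146) and 3 of 27, 4 of 26 and 6 of 27 in the lower ones. Where both listed a member, the fold enrichment in ΔZF was a median of 0.136 times that in wt with anti-HA, against 1.24 times in ΔM2 and 1.12 times in Δ42, on the scales of their own lists. The 3 highest members in ΔZF were Smg5/Ance (11.8), CG31626/Hr39 (11.2) and ppk29/eEF5 (9.51). Smg5/Ance had 4.73 in embryos with the rat antibody, 40.2, 34.7, 30.3 and 53.3 in adults with anti-Mzfp1, and 15.3, 13.7 and 69.5 in wt, ΔM2 and Δ42 with anti-HA, and its summit lay 35 bp inside Smg5.

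Overlap with an anti-HA region did not always mean a summit at the promoter. Summits of members lay between both starts in 81.9% of cases in y1w1118 (interval 78.6 to 84.8%) and 63.2% in wt with anti-HA (53.7 to 71.8%), but in 45.3% in ΔM2 (40.1 to 50.6%), 26.4% in Δ42 (21.5 to 32%) and 23.9% in ΔZF (15.5 to 35%). The low shares were those of members that the wt anti-HA list did not hold. Among members it did hold, the share between the starts was 64.5% in ΔM2 (n = 93), 57.1% in Δ42 (n = 84) and 46.9% in ΔZF (n = 32). Among members it did not hold, the shares were 38.1% (n = 247), 12.2% (n = 181) and 5.13% (n = 39), and the median summit lay inside the gene, 47 bp from the nearer start in ΔM2, 270 bp in Δ42 and 420 bp in ΔZF.

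**Figure D5:**
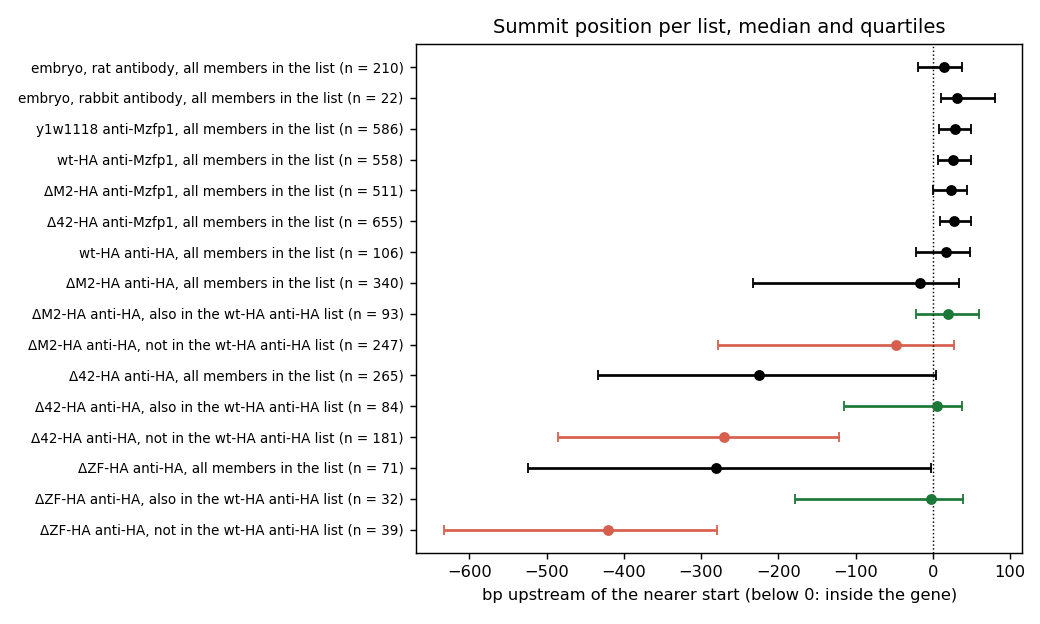
Summit position in each list (bp upstream of the nearer start, below 0 inside the gene), as median and quartiles over the members found there, with the deletion-variant anti-HA lists split by presence in the wt anti-HA list (green present, red absent). In the anti-Mzfp1 lists of adults the medians were 24 to 29 bp upstream, and in ΔZF with anti-HA the median was 420 bp inside the gene for members absent from the wt anti-HA list.

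At members absent from the wt anti-HA list, the variants' summits were far from the member's own summit but near each other. The median distance to the member's own summit was 163 bp in ΔM2, 359 bp in Δ42 and 469 bp in ΔZF, and in ΔZF 0 of 39 lay within 50 bp (Wilson upper limit 8.97%, or 7.69% taken as 3 counts of 39). Between pairs of the 3 variant lists the median distance was 41.5 to 49 bp (36 to 133 members). At members present in the wt anti-HA list the distance to the member's own summit was 19 bp in ΔM2, 19.5 bp in Δ42 and 26 bp in ΔZF. The agreement between both libraries or pools that went into a list was lower in these lists as well. All listed adult regions had already passed the authors' filter on reproducibility. Over members, Spearman's rho between the −log10 p of both inputs was 0.983 in y1w1118 and 0.968 in wt with anti-HA, and 0.887, 0.87 and 0.716 in ΔM2, Δ42 and ΔZF with anti-HA. Over all regions of the same lists, in the same order, rho was 0.978, 0.969, 0.706, 0.668 and 0.404. These coefficients are across regions, which are not independent replicates, and the part of this agreement in the summit positions was not tested.

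Members with a match to the matrix of the 100 regions differed in which lists held them. The wt anti-HA list held 30 of 66 members with a match (45.5%) and 76 of 669 without (11.4%), a difference of 34.1 points (interval 22.4 to 46.2). In Δ42 with anti-HA the shares were 65.2 and 33.2% (32 points, 19.4 to 42.9). The difference was 5.78 points in ΔM2 (−6.62 to 18) and 6.03 in ΔZF (−1.1 to 16.8) with anti-HA, both intervals including 0. With anti-Mzfp1 it was 18.1 points in wt (92.4 against 74.3%, 8.63 to 23.6), but −1.03 in y1w1118 (−12.7 to 7.71), −1.47 in ΔM2 (−13.9 to 9.12) and −3.02 in Δ42 (−13.5 to 3.77). In embryos it was 13.6 points with the rat antibody (1.97 to 26) and 15 with the rabbit antibody (7.81 to 25.8). Fold enrichment moved with the match, with a y1w1118 median of 4.32 and an upper quartile of 24.1 in members with a match and 3.58 and 5.36 in those without, and its part in the differences was not tested. Differences between lists in this respect were not tested either.

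The genes at members were compared with 18 gene family lists, defined by symbol for processes that every cell uses. These lists were chosen with earlier results of these data known, so the shares below are a description. Of the 475 annotated pairs with a gene in any of these lists 229 carried a region (48.2%, interval 43.7 to 52.7%), against 541 of the 1586 other pairs (34.1%, 31.8 to 36.5%) and 37.4% of all pairs. Cytoplasmic ribosomal proteins stood highest among the larger lists, with a region at 31 of 44 pairs (70.5%, 55.8 to 81.8%). The CCT chaperonin and prefoldin, which fold tubulin and actin, had 8 of 11 (72.7%, 43.4 to 90.3%) and chromatin and architectural proteins 21 of 34 (61.8%, 45 to 76.1%). The ubiquitin pathway had 14 of 23 (40.8 to 77.8%) and membrane traffic 35 of 68 (51.5%, 39.8 to 62.9%). The vacuolar proton pump had 7 of 11 (35.4 to 84.8%), the proteasome 11 of 20 (34.2 to 74.2%) and translation factors 12 of 23 (33 to 70.8%). Nuclear pore and transport had 13 of 24 (35.1 to 72.1%) and mitochondrial import and protein quality 5 of 9 (26.7 to 81.1%). From the vacuolar proton pump on, these intervals include the 37.4% of all pairs. Mitochondrial ribosomal proteins, at 23 of 51 (45.1%), and oxidative phosphorylation, at 13 of 31 (41.9%), had intervals that include the share of all pairs. DNA replication and repair, at 11 of 37 (29.7%), transcription machinery, at 16 of 52 (30.8%), and aminoacyl-tRNA synthetases, at 7 of 21 (33.3%), lay below that share, with intervals that include it. The lists are not independent, since a pair can be in more than 1.

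Ribosomal protein members were mostly of ordinary strength, with a median y1w1118 fold enrichment of 3.59 (n = 27). The highest were CG17271/RpS20, RpL39/Rap2l and RpL32/CG7943. At CG17271/RpS20 the fold enrichment was 4.04 in embryos with the rat antibody, 32.5, 16.2, 21.4 and 31.5 in y1w1118, wt, ΔM2 and Δ42 with anti-Mzfp1, and 3.12 and 3.77 in ΔM2 and Δ42 with anti-HA, and the region was in neither the rabbit, wt anti-HA nor ΔZF list. Its summit lay 21 bp upstream of CG17271 and 312 bp from RpS20. RpL39/Rap2l had 5.47 and 8.13 in embryos, 26.5, 19.2, 7.71 and 12.4 with anti-Mzfp1, and 11.8, 16.2 and 7.85 in wt, ΔM2 and Δ42 with anti-HA, with the summit 67 bp upstream of RpL39. RpL32/CG7943 had 7.17 in embryos with the rat antibody, 13, 18.3, 7.85 and 15 with anti-Mzfp1, and 10.8, 4.46 and 39.5 in the same 3 anti-HA lists, with the summit 49 bp upstream of RpL32. None of the 30 ribosomal protein members was in the ΔZF list, which allows a share of up to 10% taken as 3 counts of 30, while 71 of all 735 members were.

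The summit did not in general favour the family gene of a pair. In 201 members exactly 1 of both genes was in a family list, and the summit was nearer to that gene in 106 (52.7%, interval 45.8 to 59.5%). With at least 200 bp between the starts this was 81 of 142 (57%, 48.8 to 64.9%). Single families went both ways. The summit was nearer to the ribosomal protein gene in 20 of 30 members and to the autophagy gene in 6 of 6, but to the membrane traffic gene in 10 of 35 and to the transcription machinery gene in 4 of 15. At Pc/Rab26, Rpn7/AP-2mu and GluProRS/AP-1sigma, the 3 highest members with a membrane traffic gene, the summit was nearer to the partner, which is a Polycomb subunit, a proteasome subunit and a tRNA synthetase.

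Members of the other families ranged from the strongest to the weakest of all. Among translation factors, ova/eEF1delta (a gene needed in the ovary and a subunit of the elongation factor complex) was in all 10 lists, with 14.7 and 20.4 in embryos, 81.1, 57.7, 46.8 and 71.3 with anti-Mzfp1, and 37.1, 49.8, 35.7 and 4.19 with anti-HA. Usp14/CG4972, with a deubiquitinase of the proteasome, was in all 10 as well, with 12.2 and 10.9 in embryos, 72.7, 59.8, 43.3 and 69.7 with anti-Mzfp1, and 37.4, 44.9, 26.5 and 4.43 with anti-HA. Cdk1/mRpS7 joins the mitotic kinase with a protein of the mitochondrial ribosome, and its summit lay 22 bp upstream of Cdk1. It had 8.47 and 5.45 in embryos, 60.1, 45.9, 34.8 and 54.7 with anti-Mzfp1, and 21.1, 13.2 and 12.4 in wt, ΔM2 and Δ42 with anti-HA, and was not in the ΔZF list. Bug22/TfIIB, with the general transcription factor, was the only transcription machinery member above 4.38 in y1w1118, at 25.4, and reached 50.3 in ΔM2 with anti-HA against 31 in wt. ND-30/CG15812, with a subunit of respiratory complex I, had 16.4 in y1w1118 and 28.9 in ΔM2 with anti-HA, and CtsL4/ClpP 35.9 and 23.8. CG12974/pzg had 35 in y1w1118, 20.7, 8.48 and 31.7 in wt, ΔM2 and Δ42 with anti-HA, and 3.82 in ΔZF. All these lie far above the named members of DNA replication, where Sld5/CG14543 (4.69), Psf1/Sac1 (4.16) and Art1/Mcm5 (3.62), with subunits of the replicative helicase, were the highest in y1w1118 and were in no embryo or anti-HA list.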

How the data were processed

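Peak lists of Mzfp1 ChIP-seq made from a series of 23 libraries, controls included, were used, 1 list per group. Per the study's methods the authors aligned trimmed reads to dm6 (the submitters' processing notes also name dm3). Embryo reads were single-end (bowtie, MACS2 at p 1e-05). Adult reads were paired-end (bowtie2, Picard, MACS2 at p 0.01), and adult peaks then passed IDR, a filter on reproducibility, at 0.05 between replicates and 0.01 between pseudoreplicates. Peaks were called against the matching preimmune control, and the labels do not tie each list to a control library.

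The deposited lists give the fold enrichment, which is a ratio to the control, the −log10 of the p-value and the summit position. The authors' adult lines carry the values of the first of 2 IDR inputs, and whether that was a library or a pool is not stated. The read depth is unknown. Overlap by 1 bp merged regions and counted as found in a list. Starts came from Ensembl release 115 (BDGP6.54, genome Release 6, 13986 protein-coding genes), and paired genes do not overlap. A member's summit was that of the y1w1118 list or, failing that, of the list with the highest fold. Matrices of 15 bp were refined over 12 rounds from the word most enriched within 50 bp of the summits, and a match was a score reached at 1 in 10000 positions of background sequence. Scripts (Python 3.11.15, numpy 2.4.6, scipy 1.17.1, matplotlib 3.10.9) were tested on simulated data.

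Named members are, by fold enrichment, the 8 highest in y1w1118, the 3 highest in the rat embryo, wt anti-HA and ΔZF anti-HA lists, those in all 10 lists (up to 8), the highest 3 that each variant lacks or that transgenic lists alone hold, the highest 2 of embryos without y1w1118, the 2 with the longest and shortest stretch, and the 3 highest of each family list. Dph2, shams, Sfp24F and CG14036 are named for their matches, after their values were seen. The members and the family lists were chosen with earlier results of these data known. One named member is not reported here. Alternatives are given in the closing section.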

Additional observations from a re-analysis of the deposited data

How the results depend on the processing

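No paired analysis was possible because the deposited lists combine both libraries of a group, and for the same reason leaving out a replicate could not be done. The number of members was 735 and lay between 548 and 797 under 6 other rules (548 with starts at most 500 bp apart, 797 when gene bodies may overlap). Of 111 alternative values 85 stayed within the counting interval or within 1.5 times the reported count, and 26 moved. Merging only the y1w1118 adult and both embryo lists moved the share of members to 35.1% in the rat embryo list, 98.3% in y1w1118, 82.8% in wt, 77.6% in ΔM2 and 93.6% in Δ42 with anti-Mzfp1, the share of pairs with a region to 30.7% and that of summits between the starts to 81.4%. With every list cut to its 117 highest regions, the length of the shortest, the shares were 3.13% in the rat embryo list, 4.22% in y1w1118, 3.4% in wt, 4.08% in ΔM2 and 3.27% in Δ42 with anti-Mzfp1, and 3.54% in wt, 3.13% in ΔM2, 2.59% in Δ42 and 1.77% in ΔZF with anti-HA. At equal length the shares thus lay between 1.77 and 4.22%, with ΔZF lowest, and fewer regions per list is what this alternative changes. It holds no share over all merged regions, so it cannot tell whether members lay above that background. For the adult anti-Mzfp1 lists at full length, a smaller share of members than of all merged regions ranked in the highest 10% by fold. The shares, among regions found, were 7.85 against 10% in y1w1118 and 6.81 against 10% in wt. They were 8.61 against 10.1% in ΔM2 and 7.02 against 9.93% in Δ42. These differences were not tested. Starts at most 500 bp apart gave 91.2% in Δ42 with anti-Mzfp1. Requiring the summit of the list's region inside the member gave 41.4% in ΔM2 and 29.8% in Δ42 with anti-HA, overlap by at least 50% of the shorter region 29.5% in Δ42 and 7.07% in ΔZF, and a −log10 p of at least 10 gave 7.4% in ΔZF. Counting only the outermost start of each gene gave 70.9% of summits between the starts. The share of members with a match, 8.98% as reported, was 2.86% at a score reached at 1 in 100000 positions, 6.39% in a window of 100 bp and 44.6% with the matrix of 300 regions, which was chosen after seeing the data and is a matrix of another word. Apart from the matrices the causes were not tested. No list has a replicate, the read depth is unknown, and a share in a list moves with its length.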

Other observations

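Strong members were gathered in 2 intervals that were chosen after their values were seen, and the values are given as a description. On chr2L:10200895-10431827, from the first to the last of its members, 15 of 20 annotated pairs carried a region, and 12 of the 14 members were in the y1w1118 list with a median fold enrichment of 30.7 (2.95 to 93.1). They include Npc1a/Prosalpha6, CtsL4/ClpP and Cdk1/mRpS7. On chr2R:24028514-24099583, 8 of 9 pairs carried a region, and all 8 members were in the y1w1118 list with a median of 44.4 (3.05 to 140). They include Chi/MAN1, tsr/sei, ppk29/eEF5 and RpL39/Rap2l. All 8 of the 2R interval were also in the rat embryo list, the 4 adult anti-Mzfp1 lists and the anti-HA lists of wt, ΔM2 and Δ42, while 4 were in the ΔZF list. Each interval held 6 of the 25 members of highest y1w1118 fold enrichment, and the other 13 lay among the 566 members of that list outside both intervals, whose median was 3.55. In wt with anti-HA, 10 of the 14 and 8 of the 8 members of these intervals were listed, against 106 of all 735 and 18% of all merged regions. That list held more of the strong members everywhere. It held 51.1% of members in the highest quartile of wt anti-Mzfp1 fold enrichment and 4.29% in the lowest. The part of fold enrichment in the counts of the intervals was not tested.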
